A study of Bos taurus with 16 samples.

Results

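Ornithine decarboxylase (ODC1) and 7 other genes of polyamine metabolism were followed through bovine preimplantation development in vivo. The members were the loci of the deposited table whose gene name is ODC1, OAZ1, OAZ2, AZIN1, AMD1, SRM, SMS or SAT1, and all 8 names were found among 27393 loci. ODC1 was taken up because it is among the loci with most reads after embryonic genome activation (EGA), so it was chosen by its read counts in these samples, and its level there is a description and was not tested. The other 7 were taken for their role in the pathway. Only ODC1 named more than one locus, and of these the one with the higher mean level was taken. Its main locus is XLOC_007380 and its other locus is XLOC_007906.

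Each of the 16 samples was a single MII oocyte or a single embryo developed in vivo, with 2 samples for each of 8 stages: MII oocytes, embryos of 2, 4, 8 and 16 cells (2C, 4C, 8C, 16C), morulae before (EM, early) and after compaction (CM) and blastocysts (BL). No stage was treated, and the labels give no genotype, breed or age of the donors. The study places EGA between 4C and 8C, so that 6 samples lay before it (MII, 2C and 4C) and 10 after it (8C, 16C, EM, CM and BL). Nothing in the labels says whether replicates came from separate animals, and p-values therefore measure only the spread between these samples. In the comparison across EGA the 2 samples of a stage were counted as independent. Where they are alike, its p-values are too small.

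Polyamines (putrescine, spermidine and spermine) are small positively charged molecules that bind nucleic acids and are needed for translation and cell division. ODC1 makes putrescine from ornithine and is held in check by antizymes (OAZ1, OAZ2), which bind its subunits and deliver them to the proteasome, whereas the antizyme inhibitor AZIN1 resembles ODC1, lacks its activity and captures antizyme. AMD1 makes the aminopropyl donor that SRM and SMS use to form spermidine and spermine, and SAT1 acetylates both for export or back-conversion. Much of this control acts on proteins and on translation, which were not measured here.

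Levels are given as CPM, the reads on a locus divided by all reads of the sample and multiplied by 1e6. Samples held between 607672 and 3379426 reads, and the smallest number of reads taken as detectable, 3, corresponded to between 0.888 and 4.94 CPM. This floor covers counting error only, because the RNA of each sample was amplified and copies of one molecule were not told apart. CPM is not divided by transcript length, so levels are compared between stages and not between genes, and a rank among loci counts reads and not molecules. A level is a share of the reads of a whole oocyte or embryo, in which fewer cells with a transcript and less transcript per cell cannot be told apart.

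The samples did not all sort with their stage. Over 6042 loci with a mean of at least 10 CPM, 2C replicate 1 was most like MII replicate 2 (Pearson's r = 0.874 across loci), while 2C replicate 2 was most like 4C replicate 1 (r = 0.933), and the correlation of the 2C samples with each other was 0.836. The 8C samples were least alike, at 0.707. Replicate 1 of 8C was most like 16C replicate 1 (r = 0.860) and replicate 2 most like CM replicate 2 (r = 0.738), while CM replicate 2 was most like EM replicate 1 (r = 0.899). The sum of 6 oocyte markers lay between 269 and 591 CPM in every sample before EGA, with BMP15 at 0 throughout, and between 0.982 and 101 CPM after it. Its highest value after EGA was that of 8C replicate 2. The sum of 7 cumulus and granulosa markers lay between 78.4 and 321 CPM before EGA and between 0 and 31.7 CPM after it. Most of it came from HAS2, AMH and INHA had no reads, and its part in the results was not tested. Of 3 sperm markers, PRM1 and PRM2 had no reads. The sum of 6 trophectoderm markers lay between 1249 and 1341 CPM in the blastocysts, and reached 309 CPM at 16C and 120 CPM at CM. CDX2, one of the 6, had no reads in the blastocysts and a single read in the series (8C replicate 1, 1.24 CPM).

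ODC1 took a large share of the reads in the oocyte, its smallest share in the 4-cell embryo and a larger share again at every later stage. The main locus held 69224 and 95696 CPM in the MII oocytes, 73242 and 9183 CPM at 2C, and 5467 and 7772 CPM at 4C. At 8C it held 32522 and 15191 CPM, at 16C 49447 and 59043 CPM, and at EM 23404 and 15396 CPM. Compact morulae held 29316 and 38646 CPM and blastocysts 26528 and 27631 CPM.

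Both 4-cell embryos lay below the other 14 samples, and both MII oocytes lay above every sample of the later stages except 2C replicate 1, which stood between them. The same held for the 4-cell embryos in the deposited values, at 7262 and 10273, which are scaled by size factors instead of by total reads. In the order of mean levels, MII (82460 ± 18719 CPM, mean ± SD, n = 2) stood first, followed by 16C (54245 ± 6786), 2C, CM (33981 ± 6597), BL (27079 ± 779.6), 8C, EM (19400 ± 5663) and 4C (6620 ± 1630). Neighbours in this order overlapped between 16C and 2C, 2C and CM, BL and 8C, and 8C and EM.

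**Figure D1:**
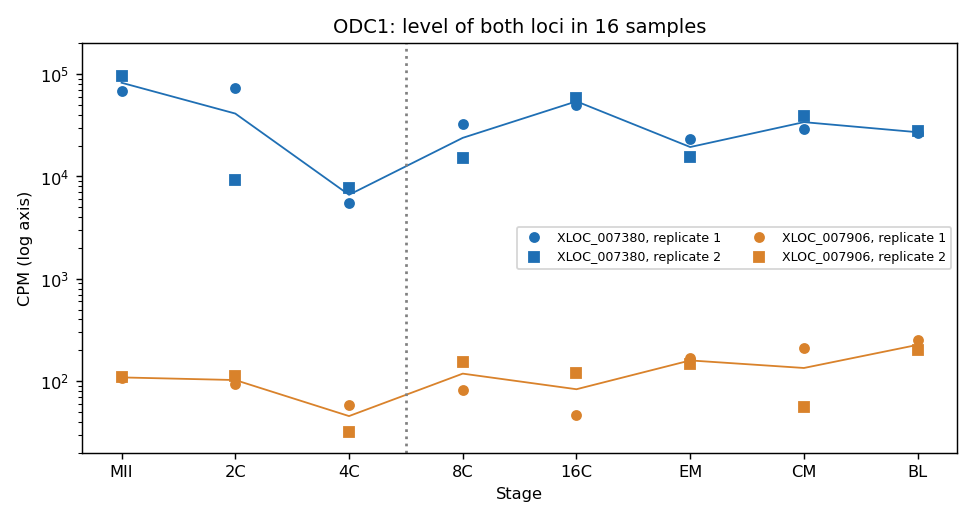
Level of the ODC1 loci (CPM, log axis) by stage, with circles and squares for replicates 1 and 2, lines through the mean of 2 samples and a dotted line between 4C and 8C. The main locus (XLOC_007380) falls to 5467 and 7772 CPM in the 4-cell embryos and lies between 15191 and 59043 CPM afterwards, while the other locus (XLOC_007906) stays between 32.0 and 249 CPM.

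In the MII oocytes ODC1 took 6.92% and 9.57% of all reads, which made it the locus with the second most reads (rank 2) in both. In the 4-cell embryos it took 0.547% and 0.777%, at ranks 20 and 17. From the 8-cell stage on its share lay between 1.52% and 5.90%, with rank 1 in 5 of 10 samples and rank 6 in the lowest, 8C replicate 2. Averaged over the samples of a period, ODC1 had the highest mean CPM of all loci after EGA (31712 ± 14015 CPM, n = 10) and stood at rank 3 before it (43431 ± 40426 CPM, n = 6).

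ODC1 was chosen by its reads after EGA, so only its changes among the earlier stages were taken as tests. Its fall from MII to 2C had a log2 change of -2.54 (standard error, SE, 0.96; limma adjusted p = 0.184) and that from 2C to 4C one of -1.86 (SE 0.96, limma adjusted p = 1). Neither passed the threshold, and the 2-cell samples stood on either side of the fall. Both changes are of the deposited values and not of CPM. On log2(CPM + 1), the stage means of ODC1 less their average were 1.59 at MII, -0.06 at 2C and -2.05 at 4C. After EGA, its log2 changes between neighbouring stages ran from -2.04 (16C to EM) to 1.37 (EM to CM), each with a SE of 0.96. These are a description of the samples by which it was chosen. Blastocysts differed from 8-cell embryos by -0.03 (SE 0.96), also a description.

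The other ODC1 locus, XLOC_007906, held far fewer reads under the same name, between 52 and 377 per sample. Its lowest level, 32.0 CPM, was also that of a 4-cell embryo, but 16C replicate 1 (46.4 CPM) and CM replicate 2 (56.4 CPM) lay below the other 4-cell embryo (59.0 CPM). Its highest levels were those of BL replicate 1 (249 CPM), CM replicate 1 (212 CPM) and BL replicate 2 (203 CPM). Its stage effect was not called by limma (adjusted p = 0.0724), but was called without CM replicate 1 (0.0346) or CM replicate 2 (0.035). The rule by which reads with several matches were counted is not given in the sources used here, so reads shared between copies of ODC1 may be split or missing.

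Antizyme 1 (OAZ1, XLOC_063820), the main brake on ODC1, was lowest at the same stage as ODC1. It held 117 and 133 CPM at MII, 129 and 80.5 CPM at 2C, and 27.8 and 28.9 CPM at 4C. At 8C it held 132 and 58.7 CPM, at 16C 78.8 and 139.9 CPM, and at EM 73.5 and 148 CPM. Compact morulae held 141 and 90.7 CPM and blastocysts 153 and 145 CPM. Both 4-cell embryos lay below the other 14 samples, which ranged upwards from 58.7 CPM.

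OAZ1 had a stage effect (limma adjusted p = 0.0129). From the 4- to the 8-cell stage it rose by a log2 change of 1.61 (SE 0.54, limma adjusted p = 0.0305), and it was the only one of 6 members tested there to pass, with ODC1 and SRM left aside, against 36.8% of 9670 loci in either direction and 17.7% that were higher. The rise rested on few samples. Without 8C replicate 1 it was 0.88 (limma adjusted p = 0.274), and without 4C replicate 1 or 2 the limma adjusted p was 0.116 or 0.108. Without 4C replicate 1 or 2, the stage effect was not called either (limma adjusted p = 0.0705 or 0.066).

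Reads on ODC1 per read on OAZ1 do not depend on the scaling of a sample. This ratio was 589 and 721 in MII oocytes, 567 and 114 at 2C and 197 and 269 at 4C. After EGA it ran from 104 in EM replicate 2 to 627 in 16C replicate 1. The 16-cell embryos held 627 and 422, and the blastocysts 173 and 190.2. The periods overlapped, with medians of 418 before EGA (n = 6) and 252 after it (n = 10). Transcript lengths enter the size of the ratio, so it can be compared between samples only.

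The other antizyme, OAZ2 (XLOC_003698), had between 6 and 101 reads per sample. The MII oocytes held 11.5 and 9.20 CPM, the 2-cell embryos 18.0 and 7.40 CPM and the 4-cell embryos 7.64 and 15.4 CPM. Later values were 13.6 and 23.1 CPM (8C), 24.7 and 41.1 CPM (16C), 49.2 and 18.6 CPM (CM) and 38.3 and 8.81 CPM (BL). Before EGA it thus lay between 7.40 and 18.0 CPM with a median of 10.4 CPM, and after EGA between 8.81 and 55.9 CPM with a median of 31.5 CPM. Early morulae, at 44.9 and 55.9 CPM, had the highest stage mean and overlapped with the compact morulae, and 8 of the 10 later samples lay above every earlier one. Across EGA its log2 change of 0.82 (SE 0.39, limma adjusted p = 0.0705) fell short of the threshold.

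AZIN1 (XLOC_014991), the antizyme inhibitor, held 82.0 and 79.8 CPM at MII, 157 and 54.2 CPM at 2C and 55.6 and 58.4 CPM at 4C. It then held 89.1 and 95.2 CPM at 8C, 104 and 405 CPM at 16C and 138 and 506 CPM at EM. Compact morulae held 138 and 139.9 CPM and blastocysts 66.8 and 91.0 CPM. The 16-cell embryos and early morulae differed among themselves by more than any stages differed in mean. AZIN1 had no stage effect that passed (limma adjusted p = 0.167).

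AMD1 (XLOC_070439), which makes decarboxylated S-adenosylmethionine, had its lowest stage means at the ends of the series. MII oocytes held 12.4 and 7.89 CPM and blastocysts 23.6 and 5.87 CPM, while all other samples lay between 19.8 and 89.5 CPM. Those extremes were the 8-cell embryos, replicate 1 and replicate 2. The 2-cell embryos held 34.6 and 64.2 CPM, the 4-cell embryos 45.8 and 51.6 CPM and the 16-cell embryos 27.8 and 29.6 CPM. The morulae held 46.6 and 84.7 CPM (EM) and 48.2 and 62.1 CPM (CM). A stage effect was not called (limma adjusted p = 0.0686), but was called when scaled to total reads (limma adjusted p = 0.0326). Blastocysts held less than compact morulae by a log2 change of -2.28 (SE 0.71, limma adjusted p = 0.0872), a difference that was not called either.

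SRM (XLOC_019447), the spermidine synthase, had no reads in either MII oocyte and 10 reads in all 6 samples before EGA, against 132 in the 10 samples after it. It held 16.1 and 6.73 CPM at 8C, 0 and 4.94 CPM at 16C and 4.90 and 7.75 CPM at EM. Compact morulae held 33.8 and 2.14 CPM and blastocysts 28.5 and 35.2 CPM. In the single samples before EGA it did not exceed 4 reads, close to the floor of 3. SRM passed the filter of the 8-stage model through its late samples alone and is given without a p, and it had too few reads for the comparison of the periods.

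SMS (XLOC_075819), the spermine synthase, held 7.53 and 3.94 CPM at MII, 0 and 22.8 CPM at 2C and 38.2 and 30.7 CPM at 4C. It was low again at 8C, at 8.66 and 6.73 CPM, and held 22.4 and 46.1 CPM at 16C. Early morulae held 40.9 and 29.9 CPM, compact morulae 17.4 and 23.6 CPM, and blastocysts 135 and 99.8 CPM. Both blastocysts lay above the other 14 samples.

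SMS had a stage effect (limma adjusted p = 0.0317), which was lost without any of 7 samples (adjusted p up to 0.131, without BL replicate 1). Blastocysts exceeded 8-cell embryos by a log2 change of 3.48 (SE 1.06, limma adjusted p = 0.0485). With ODC1 and SRM left aside, SMS was the only one of 6 members to pass in that contrast. Of 9670 loci, 10.1% passed in either direction and 6.44% were higher. The call was at the margin and was lost under 5 of 8 other settings, among them edgeR and the replicate block. Without BL replicate 1 or 2 the change was 3.29 or 3.66 with a limma adjusted p of 0.199 or 0.203, and leaving out any of 14 samples raised it above 0.05. The direction was kept in all these cases.

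SAT1 (XLOC_075463), which starts polyamine breakdown, had at most 40 reads in a sample. MII oocytes held 0.886 and 2.19 CPM, and early morulae, with 20.4 and 22.1 CPM, had the highest stage mean, although 8C replicate 2 lay above both. The replicates of several stages lay far apart, with 20.6 and 6.21 CPM in 2-cell, 1.24 and 26.9 CPM in 8-cell and 6.95 and 18.1 CPM at 16C. The blastocysts, at 8.84 and 8.81 CPM, hardly differed. SAT1 had no stage effect that passed (limma adjusted p = 0.505).

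**Figure D2:**
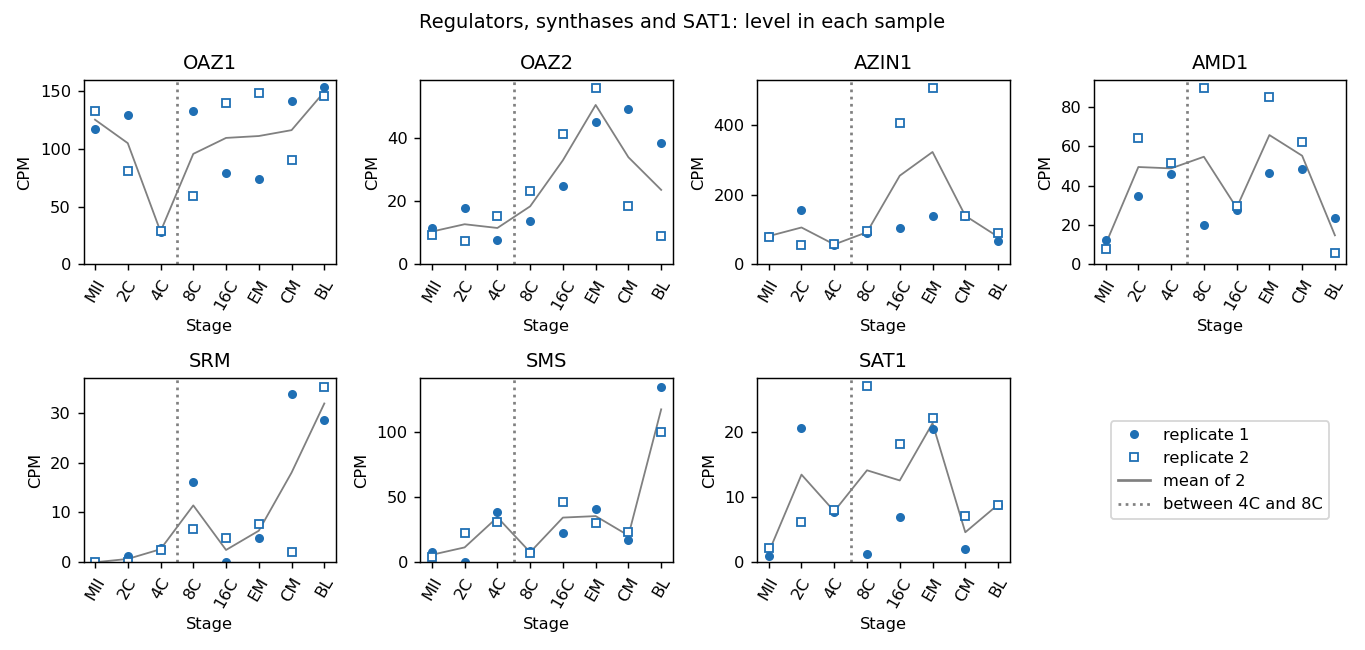
Level (CPM, linear axes from 0) of the other 7 members by stage, with filled circles and open squares for replicates 1 and 2, a grey line through the mean of 2 samples and a dotted line between 4C and 8C. OAZ1 is lowest at 4C (27.8 and 28.9 CPM), SMS is highest in blastocysts (135 and 99.8 CPM), and the replicates of AZIN1 and SAT1 lie far apart at several stages.

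Over the 8 stages, with ODC1 and SRM left aside, 2 of the other 6 members had a stage effect (OAZ1 and SMS), against 66.7% of 9670 loci. Across EGA, 6 members had enough reads for the test, ODC1 was not tested, and none of the 6 passed by limma, against 66.8% of 6910 loci. At an unadjusted p under 0.05 there was 1, OAZ2, against 69.4% of all loci. By edgeR there were 0 and by DESeq2 there was 1, against 63.6% and 67.2%. Their log2 changes ran from -0.18 (AMD1) to 1.15 (SMS, SE 0.72, limma adjusted p = 0.164), where the median of all loci tested was 0.23. Scaled to total reads that median was 0.66, and OAZ2 then passed (1.28, limma adjusted p = 0.0144). For ODC1 itself the direction turned with the scaling and with the way samples were averaged. The mean log2 difference after minus before EGA was -0.20 on the deposited values, -0.24 with TMM factors and 0.28 when scaled to total reads. Mean CPM, also scaled to total reads, was 43431 before EGA and 31712 after it. The count models of edgeR and DESeq2 gave -1.25 and -1.17.

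Between the other neighbouring stages no member passed by limma, with ODC1 left aside after EGA. The share of 9670 loci that passed was 1.42% from MII to 2C, 0.858% from 8C to 16C, 0.103% from 16C to EM and 4.42% from CM to BL. No locus at all passed from 2C to 4C (441 at an unadjusted p under 0.05, 0 by edgeR and 1 by DESeq2) or from EM to CM (485, 0 and 5). An unadjusted p under 0.05 was reached by ODC1 and OAZ1 from MII to 2C (16.4% of all loci), OAZ1 and SMS from 2C to 4C (4.56%) and AMD1 and SMS from CM to BL (18.1%). With ODC1 and SRM left aside, it was reached by 0 of 6 members in the other contrasts. By edgeR and by DESeq2, 0 passed in each of these 6 contrasts.

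The stage profile of ODC1 was set beside those of 6041 loci with a mean of at least 10 CPM. Each profile was the stage means of log2(CPM + 1) minus their average, and likeness was the root mean square difference between profiles over the 8 stages. OAZ1 was the 6th closest, at 0.63. The closest were SETDB1 (a histone H3 lysine methyltransferase) at 0.46, NPRL3 (a regulator of the mTORC1 pathway) at 0.47, TOR1A at 0.575, CRCP (a subunit of RNA polymerase III) at 0.58 and LMNB1 (lamin B1) at 0.63. The median over all loci compared was 1.76.

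AZIN1 (1.05, rank 302) and OAZ2 (1.20, rank 705) were closer than that median, SAT1 (1.63) and AMD1 (1.71) near it, and SMS (1.99) farther from ODC1 than the median. A flat profile without any change would stand at 1.01, closer to ODC1 than each of these members. SRM (2.12) had too low a mean to be ranked with the others. All profiles share the same 16 libraries, and these values are a description without a test. ODC1 and OAZ1 both had their lowest stage at 4C, at -2.05 and -1.69 on this centred log2 scale. AZIN1 (-0.95) and the second ODC1 locus (-1.27) were also lowest there, whereas AMD1 and SMS stood at 0.57 and 0.80. How many of all loci were lowest at 4C was not counted. The values of ODC1 and OAZ1 lay farthest apart at MII (1.59 and 0.41), followed by 16C (1.00 and 0.16).

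**Figure D3:**
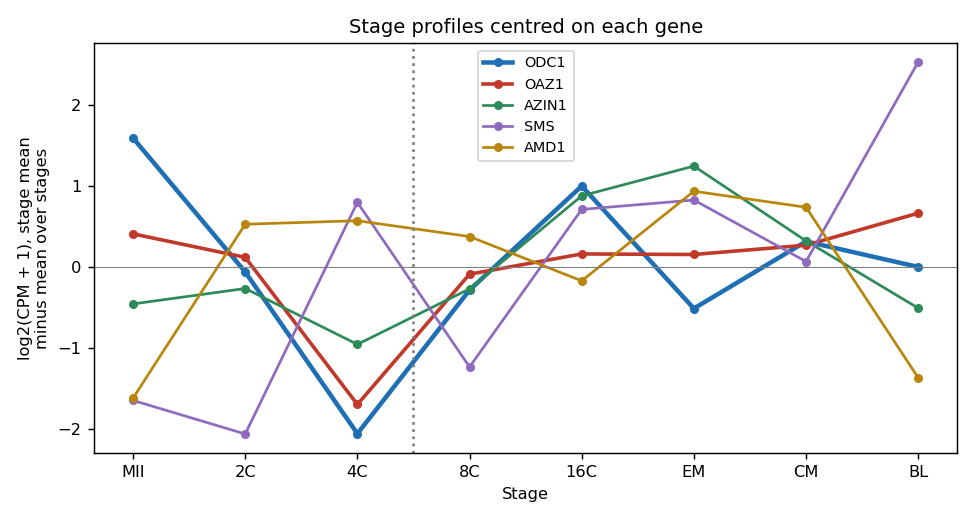
Stage profiles of ODC1, OAZ1, AZIN1, SMS and AMD1, as the stage mean (n = 2) of log2(CPM + 1) minus the mean over the 8 stages of the same gene, with a dotted line between 4C and 8C. ODC1, OAZ1 and AZIN1 are lowest at 4C (-2.05, -1.69 and -0.95), where AMD1 and SMS lie above 0.

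Around the members, 43 further genes were listed for the supply, use and transport of polyamines and for the control of ODC1, and 42 were found. Across EGA 19 had enough reads for the test, and 8 were higher and 5 lower by limma, against 36.9% of all 6910 loci higher and 29.9% lower. The share of the list that passed was thus near that of all loci (66.8%). MYCN, PAOX, DOHH and AZIN2 passed the filter through one period alone, with no sample of the other period at the 7.42 CPM that the filter asks for, and had to differ. Their values are given without a p. Of the other 15 genes, 5 were higher and 4 lower. From 4C to 8C the balance was another, with 4 higher and 8 lower of 24 tested, against 17.7% of 9670 loci higher and 19.1% lower. Of these, MYCN (higher), AZIN2, SLC7A3 and SLC47A1 (lower) passed the filter through one period alone.

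Of 5 genes tested for the supply of arginine, ornithine and putrescine, 2 were higher and 2 lower after EGA, against 36.9% and 29.9% of all loci. AGMAT (agmatinase, which makes putrescine from agmatine and not from ornithine) lay between 621 and 2218 CPM before EGA and between 46.2 and 421 CPM after it, without overlap (log2 change -3.23, SE 0.52, limma adjusted p = 1.3e-05). Its mean was highest at MII (1993 ± 318 CPM) and lowest at BL (56.8 ± 15.1 CPM). ARG2, the mitochondrial arginase that makes ornithine, moved the other way. It lay between 9.31 and 48.5 CPM before EGA and between 107 and 399 CPM after it, also without overlap (2.54, SE 0.37, limma adjusted p = 4.4e-06).

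SLC25A15, the mitochondrial ornithine carrier, fell by 1.85 on the log2 scale (limma adjusted p = 0.0019). OAT (ornithine aminotransferase) was higher after EGA by 1.26 (limma adjusted p = 0.0445), a call lost under 6 of 11 other settings and without any of 9 samples, where the adjusted p reached 0.147. ASL, which forms arginine, had a stage effect (limma adjusted p = 0.0115) but did not pass at EGA (0.93, adjusted p = 0.176).

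Hypusine is made from spermidine on the translation factor EIF5A by DHPS and then DOHH. EIF5A lay between 26.3 and 95.1 CPM before EGA and between 201 and 542 CPM after it (log2 change 2.16, SE 0.32, limma adjusted p = 6.2e-06). DHPS was higher after EGA by 2.28 (SE 0.51, limma adjusted p = 5.3e-04), with overlap between the periods. For DOHH the mean of the 6 earlier samples was 2.48 ± 1.72 CPM and that of the 10 later ones 19.3 ± 13.9 CPM. EIF5A held 90.9 ± 6.004 CPM at 4C and 528 ± 19.0 CPM at 8C, and DHPS 28.4 ± 7.98 and 211 ± 35.2 CPM, and both passed in that contrast (limma adjusted p = 0.00178 and 0.0108). At 16C EIF5A held 262 ± 86.4 CPM and DHPS 53.5 ± 29.2 CPM. DOHH held 4.26 ± 0.776 CPM at 8C and 24.9 ± 8.997 CPM at 16C, a difference for which no test is given. EIF5A2 is listed at 0 in every sample.

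The pair that forms methionine adenosyltransferase moved in opposite directions. The catalytic MAT2A rose from a median of 26.3 CPM before EGA to 99.9 CPM after it (log2 change 1.42, SE 0.34, limma adjusted p = 0.00112). The regulatory MAT2B fell from a median of 142 to 43.9 CPM without overlap (-2.22, SE 0.36, limma adjusted p = 1.7e-05). AHCY and MAT1A are listed at 0 in every sample.

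PAOX, the oxidase that acts on acetylated polyamines, had at most 2.08 CPM before EGA and at least 4.64 CPM after it. AZIN2, matched by its older name ADC, lay between 7.69 and 26.6 CPM before EGA and at or below 5.77 CPM after it, with no reads in 7 of 10 samples. For AZIN1, the other antizyme inhibitor, the log2 change was 0.41 (SE 0.40), with an adjusted p of 0.366 by limma.

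Among transporters, SLC7A2 (a carrier of cationic amino acids such as arginine and ornithine) fell from a median of 63.8 CPM before EGA to 0 CPM after it, with reads in 4 of the 10 later samples (log2 change -5.00, SE 0.74, limma adjusted p = 5.5e-06). The early morulae held 12.3 and 21.0 CPM, and the higher of them lay above 2C replicate 1 (20.6 CPM). SLC7A3, of the same family, held 2.65 ± 1.27 CPM at MII, 7.40 and 213 CPM in the 2-cell embryos, 40.4 ± 0.199 CPM at 4C and at most 0.982 CPM in any later sample. SLC47A1 held 14.1 ± 8.59 CPM at 4C. Both passed the filter of the 8-stage model through early samples alone and are given without a p.

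MYCN, of the MYC family of factors known to act on the ODC1 promoter, had no reads in the 6 samples before EGA and 252 in the 10 samples after it, in each of which it was present (4.81 to 47.7 CPM). With a floor of 3 reads over the 6 earlier samples, its pooled level was at least 96.6-fold higher after EGA. MAX, the partner of this family, did not pass (0.60, limma adjusted p = 0.21).

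In methylthioadenosine salvage, which recycles the by-product of SRM and SMS, none of 3 genes tested passed at EGA, against 66.8% of 6910 loci. MTAP and MRI1 had a stage effect (limma adjusted p = 0.00314 and 0.00901), as had 66.7% of all loci, and APIP had none that passed (0.135). ENOPH1 passed the filter through late samples alone. ADI1, a later enzyme of the same salvage, had 12.2 ± 11.5 CPM in the 6 earlier samples and 1.83 ± 2.15 CPM in the 10 later ones, and is given without a p because it passed the filter through early samples alone. MTAP held 4.40 ± 0.779 CPM at 8C against 39.1 ± 0.312 CPM at 4C (log2 change -2.96, limma adjusted p = 0.00148) and 36.7 ± 18.6 CPM in blastocysts. For SMS the means were 7.70 ± 1.36 CPM at 8C and 34.5 ± 5.28 CPM at 4C, a difference that did not pass (-2.07, SE 1.06, limma adjusted p = 0.138).

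**Figure D4:**
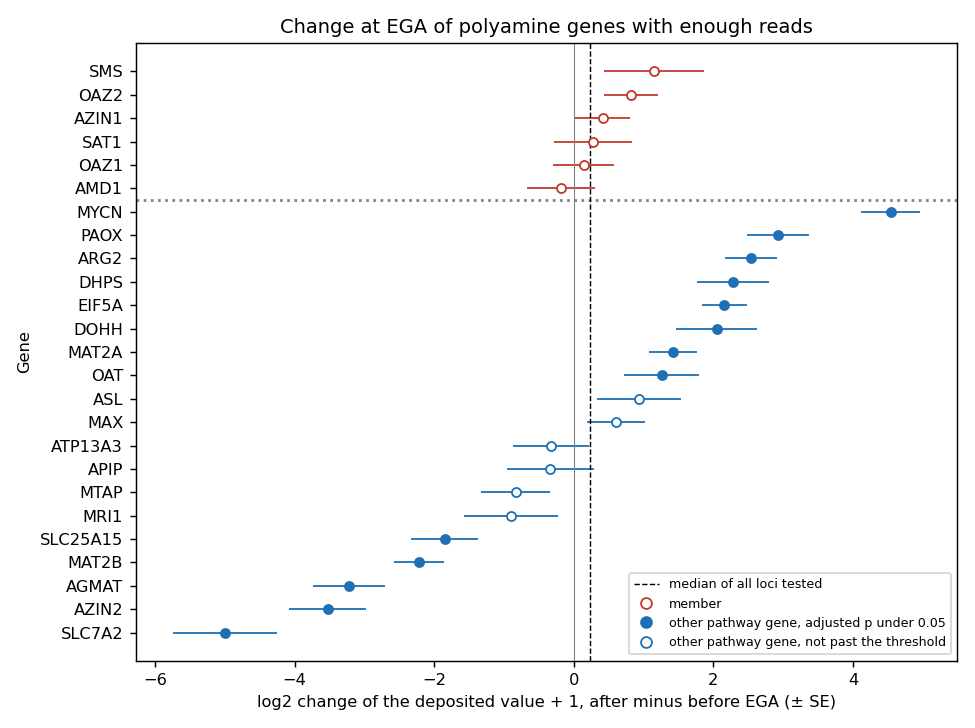
Fitted log2 change of the deposited value + 1, after minus before EGA, with standard errors, for 6 members (red, above the dotted line) and 19 further pathway genes (blue) with enough reads. Filled points passed an adjusted p of 0.05 and the dashed line is the median of all loci tested (0.23). No member is filled, while 8 pathway genes are filled to the right and 5 to the left, among them MYCN, PAOX, DOHH and AZIN2, which passed the filter through one period alone.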

How the data were processed

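Total RNA of individual oocytes and embryos was amplified before SOLiD libraries were made. The submitters' processing notes name cutadapt, FastQC, TopHat, Cufflinks and HTSeq. Versions, genome build and strand setting are not given in the sources used here. The deposited values are a signal per locus, namely read counts that the authors divided by a size factor of each sample, without correction for length. Every non-zero value (100%, within 0.01 reads) was a whole multiple of the smallest of its sample, and this step was used to recover reads and compute CPM.

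Groups came from the stage labels. The test was that of limma 3.58.1 with a mean-variance trend, run in R 4.3.3 after adding a pseudocount of 1 to each deposited value and taking log2, a scale that understates changes of low loci. Loci were kept by filterByExpr of edgeR on the recovered reads, 9670 for the 8-stage model and 6910 for 6 samples before against 10 after EGA, and p-values were adjusted over them by the Benjamini-Hochberg method at 0.05. The model of the EGA comparison held no term for stage. All 8 members passed the filter of the stage model and 7 that of the EGA comparison. Alternatives were other scalings, pseudocounts of 0.5 and 5, no filter, edgeR 4.0.16, DESeq2 1.42.0, the replicate block, each sample left out, other sets of samples and stage means. The comparison without 2C and the bounds without the sample with most reads were chosen after seeing the data. Tests were checked on simulated counts. Tables and figures were made in Python 3.11.15.

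The members and gene lists were chosen with earlier results of these data known. The text names the members, pathway genes that passed the EGA or stage test, and the 6 loci with profiles most like ODC1. Other pathway genes and marker genes named (among them SLC7A1, MYC, OAZ3, SMOX and SAT2) lie outside this rule and were chosen after their values were seen. Gene coordinates and sequences were not used here.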

Additional observations from a re-analysis of the deposited data

Results flagged for a closer look

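In 16 groups of values (8 members, samples before and after EGA), 2 values stood apart from the rest of their group by more than the 95% critical value of Dixon's test. Each group spans several stages, so the rate of flags that this test assumes does not hold here. Both values belonged to 2C replicate 1, the 2-cell embryo that was most like an MII oocyte. AZIN1 held 157 CPM there, and the nearest other sample before EGA held 82.0 CPM. SAT1 held 20.6 CPM there, against 7.99 CPM in the nearest other sample. No explanation was tested.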

How the results depend on the processing

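Of the counts over all loci, those of the stage effect stayed within 1.5 times the reported number under all settings (5650 to 6891 when a sample was left out). At EGA 4619 loci passed, 7075 without the filter, 6768 with stage means, and 4390 to 4650 when a sample was left out. The 7 contrasts of neighbouring stages gave 4217 calls, between 2400 (without 4C replicate 2; 2449 without 4C replicate 1) and 4737 when a sample was left out. For blastocysts against 8-cell embryos 974 loci passed, 339 by edgeR, and between 235 (without BL replicate 2) and 1429 when a sample was left out, with 470 without BL replicate 1 and 629 without 8C replicate 2. The cause was not tested.

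Several EGA changes of members that did not pass also changed sign. OAZ1 (0.14) was -0.34 by edgeR, -0.23 by DESeq2 and between -0.16 and 0.45 with a sample left out (-0.16 without either 4C sample). AMD1 (-0.18) was 0.28 scaled by total reads, 0.0088 without 2C and between -0.41 and 0.086 (without BL replicate 2) with a sample left out. SAT1 (0.28) lay between -0.052 (without MII replicate 1) and 0.58, and the second ODC1 locus (0.21) was -0.017 by edgeR and between -0.089 (without 4C replicate 2) and 0.44. None of these passed the threshold under any setting run. OAZ2 passed by DESeq2 (0.91, adjusted p = 0.0267), with total reads and without BL replicate 2 (0.99, adjusted p = 0.0191). AMD1 had a stage effect with total reads (adjusted p = 0.0326) and without 8C replicate 1, 8C replicate 2 or BL replicate 1. The stage effect of SMS was lost with a pseudocount of 0.5 (adjusted p = 0.0534), without the filter (0.0709) and without any of 7 samples. By edgeR, SMS in blastocysts against 8-cell embryos had a log2 change of 3.51 (adjusted p = 0.065). Summing both ODC1 loci moved no stage mean by more than its SD.

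Replicate numbers name different oocytes or embryos. Deviations from the stage means did not go together by number (median correlation 0.001 over 28 pairs of stages, from -0.308 to 0.181). This check cannot exclude a batch shared by some of the stages. With the replicate block, 4579 loci passed at EGA and 6381 had a stage effect, and SMS in blastocysts against 8-cell embryos had an adjusted p of 0.0549. SRM and SAT1 had fewer than 3 reads in 5 and 3 samples, and the deepest sample (2C replicate 2, 3379426 reads) was among those without a read of SRM.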

Other observations

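Several pathway genes had too few reads for a test, and their values are given without one. SLC7A1, a carrier of arginine and other cationic amino acids, had 30 reads before EGA and 0 in the 10 samples after it, so its pooled level was at least 8.69-fold lower with 3 reads over those samples as the floor. Without 2C replicate 2, which held 15 of the reads, this bound was 5.96-fold. MYC had 25 reads after EGA and 0 before it, a pooled level at least 9.59-fold higher. Without EM replicate 2, which held 12 of these reads, the bound was 5.98-fold. OAZ3, an antizyme known from testis, had 28 reads in 6 samples. SMOX, the spermine oxidase, had 7 reads in all 16 samples and SAT2 had 10.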
